A study of Anser cygnoides with 12 samples.

Results

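The jejunum of 12 female Sichuan white geese was sequenced, and the 12 RNA libraries were ranked by ACTG2, the gamma-actin of intestinal smooth muscle. The libraries were chosen by this measured value alone, as CPM (the deposited count divided by the sum of its column, per 1000000). The 6 libraries with the highest values are called muscle-rich and the 6 with the lowest muscle-poor, so the series is used whole, 6 of 12 libraries on each side. The names stand for the rank in ACTG2 alone, and other contractile genes place 2 of the libraries on opposite sides. The geese were 250 days old at the start and were fed for 12 weeks. Each diet group had 4 geese: the Con group received a corn-soybean meal basal diet with 0% wheat germ, the LWG group 21.8% wheat germ and the HWG group 43.6%. The muscle-rich side held 2 Con, 1 LWG and 3 HWG libraries, and the muscle-poor side 2 Con, 3 LWG and 1 HWG. How much of the gut wall went into each piece is not stated in the methods, which speak of jejunal tissue.

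The wall of the small intestine carries a coat of smooth muscle in an inner circular and an outer longitudinal layer. Shortening is driven by smooth muscle myosin, which is switched on when calcium and calmodulin activate myosin light chain kinase and switched off by a phosphatase. Between the layers lie enteric neurons with their glia, and the interstitial cells of Cajal, which set the slow electrical rhythm. The mucosa holds a second kind of stroma, in which fibroblasts, vessels and a thin muscle sheet support the epithelium.

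ACTG2 ran over a 16.8-fold range. On the CPM of column totals, the muscle-rich libraries stood at 11737 (HWG replicate 2), 6777 (HWG replicate 1), 4889 (Con replicate 4), 4826 (LWG replicate 4), 2931 (HWG replicate 4) and 2545.3 (Con replicate 2). The muscle-poor libraries stood at 2544.6 (Con replicate 1), 2088 (LWG replicate 3), 1457 (LWG replicate 2), 1272 (LWG replicate 1), 990.04 (HWG replicate 3) and 697.8 (Con replicate 3). The last library inside and the first outside thus differed by 0.0268%, and both were Con. There is no gap at the boundary, so the sides are ends of a range and not separate kinds of sample. The ranking set these values, and they carry no test, nor does any other difference between the sides. In what follows, levels are CPM after TMM, a scaling that sets the bulk of the genes level between libraries, and after this scaling Con replicate 2 (2327.5) stood below Con replicate 1 (2562) and LWG replicate 3 (2386) in ACTG2.

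Depth was alike on both sides. The counts summed to between 40243859 and 45070435 in muscle-rich libraries and between 40159187 and 45686956 in muscle-poor libraries. Genes with a count numbered 15136 to 15685 in the muscle-rich and 15231 to 15731 in the muscle-poor libraries. Among low counts, 4 was found 3148 times in the table, 3 was found 1250 times and 5 was found 1052 times, so 1 count does not stand for 1 pair of reads. Errors therefore rest on the variation between geese, as an SD over libraries or as the SE of a fitted difference. In bulk tissue, fewer cells of a type and less RNA per cell cannot be told apart.

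The difference between the sides was estimated for 14863 genes with the diet group as a covariate and is given as log2 of muscle-rich over muscle-poor with its standard error. Over all these genes the median was 0.00. Past 2-fold, 389 genes were higher (2.62%) and 474 lower (3.19%). In 56 genes all 6 muscle-rich libraries lay above all 6 muscle-poor libraries (0.377%), and in 32 all lay below (0.215%). A fitted difference above 0 was found for 50.4% of the genes. These shares describe libraries that were sorted by a gene of the same table. When the 12 libraries were left out 1 at a time, they moved most without LWG replicate 4, the only muscle-rich LWG library, where 311 genes were higher and 570 lower without overlap, and 945 were higher and 859 lower past 2-fold. Fewer libraries can only let more genes pass without overlap, and without Con replicate 1 the 2 numbers were 243 and 190. With diet as a covariate, every fitted difference without LWG replicate 4 rests on the Con and HWG libraries alone.

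The contractile apparatus comes first. Of 16 listed genes 12 were tested and 11 had a difference above 0, with a median of 0.85 (1.80-fold), and 3 passed 2-fold. ACTG2 is 1 of the genes in each of these numbers and had the largest difference (1.67), which the ranking set. The others past 2-fold were MYLK and MYH11. None of the 12 was without overlap between the sides, ACTG2 included. MYL6, TAGLN, CNN1 and PPP1R14A were not analysed here. Summed over the 12 genes, the list stood at 11816 to 41249.8 CPM in muscle-rich libraries and at 6896 to 13566 CPM in muscle-poor libraries. On the FPKM scale, which allows for transcript length, ACTG2 averaged 2121 over the 12 libraries, TPM2 626, MYL9 561 and MYH11 518. The actins ACTG2, ACTA2, ACTA1 and ACTC1 are near-identical as proteins. Whether any of their reads were counted for the wrong actin gene was not tested, so their separate levels carry that uncertainty.

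MYH11, the heavy chain of smooth muscle myosin, had a lowest, median and highest level of 2751, 4927 and 8715 CPM in muscle-rich libraries, against 1747, 2476 and 3326 CPM in muscle-poor libraries. Its difference was 1.01 ± 0.31 (SE, n = 6 and 6). The overlap came from Con replicate 2 on the muscle-rich side and from LWG replicates 2 and 3 on the other. MYLK, the kinase that starts contraction, stood at 1268, 2239 and 4303 CPM in muscle-rich libraries and at 694, 1202 and 1490 CPM in muscle-poor libraries (1.13 ± 0.32). Only Con replicate 2 and LWG replicates 2 and 3 crossed in MYLK.

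The tropomyosins, which lie along the actin filament and control access of myosin, followed closely. TPM1 had 1873, 3466 and 7157 CPM in muscle-rich libraries, against 1213, 1895 and 2269 CPM in muscle-poor libraries (0.97 ± 0.35). TPM2 averaged 1001 ± 412 CPM in muscle-rich and 471 ± 124 CPM in muscle-poor libraries (SD, n = 6 each), with a difference of 0.90 ± 0.30. In both genes Con replicate 2 was the lowest of the muscle-rich libraries. The regulatory light chain MYL9 differed by 0.87 ± 0.30, smoothelin (SMTN), a protein of contractile smooth muscle, by 0.83 ± 0.34, and caldesmon (CALD1), an actin-binding brake on myosin, by 0.81 ± 0.35.

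The remaining contractile genes differed less. LMOD1, which nucleates actin filaments in smooth muscle, stood at 119, 254 and 287 CPM in muscle-rich libraries and at 87.8, 128 and 171 CPM in muscle-poor libraries (0.63 ± 0.29). Its lowest muscle-rich value was that of LWG replicate 4, the library with 4826 CPM in the ACTG2 ranking. ACTA2, the alpha-actin shared with vessels and myofibroblasts, differed by 0.54 ± 0.34, and its lowest muscle-rich value was 525 CPM in Con replicate 2, under all but 1 of the muscle-poor libraries. The targeting subunits of myosin phosphatase differed least: PPP1R12A by 0.31 ± 0.18 and PPP1R12B by −0.07 ± 0.22, with 12.7 ± 3.24 CPM in muscle-rich and 13.1 ± 2.44 CPM in muscle-poor libraries (SD, n = 6 each).

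**Figure D1:**
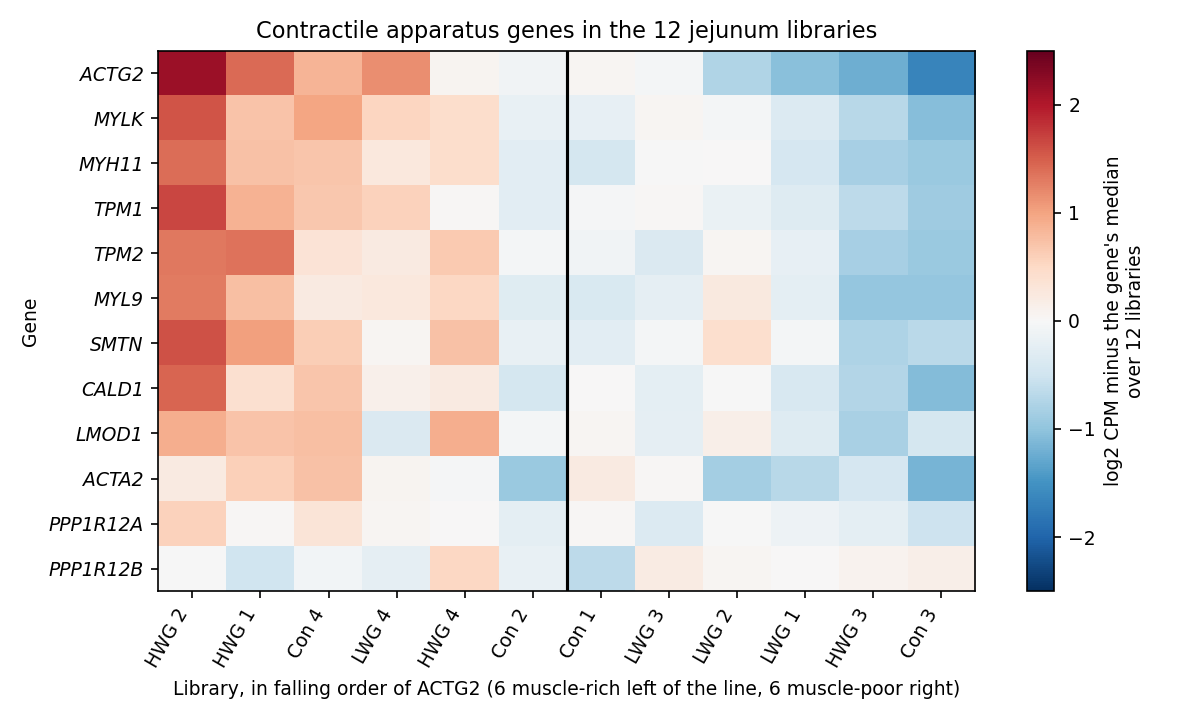
Each row is a contractile apparatus gene and each column a library in falling order of ACTG2, with the 6 muscle-rich libraries left of the line. Colour gives log2 CPM minus the gene's median over the 12 libraries. HWG replicate 2 held the highest level of 9 of the 12 genes and Con replicate 3 the lowest level of 9, while PPP1R12B shows no such order.

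ACTG2 did not keep a fixed ratio to the other muscle genes. Its CPM divided by that of MYH11 was between 0.575 (HWG replicate 4) and 1.39 (LWG replicate 4) in muscle-rich libraries and between 0.439 (LWG replicate 2) and 1.04 (Con replicate 1) in muscle-poor libraries. Set against LMOD1 the same 2 libraries lay far apart, with 46.2 in LWG replicate 4 and 8.54 in LWG replicate 2. LWG replicate 4 thus ranked far higher by ACTG2 than by LMOD1. Ranked by MYH11, Con replicate 2 fell among the 6 lowest libraries and LWG replicate 2 among the 6 highest. The contractile genes other than ACTG2 (a ranking chosen after seeing the data) placed these 2 libraries in the same way.

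Genes of dense bodies and intermediate filaments, the anchors that pass the pull of actin to the cell border, ran with the contractile genes at a smaller size. Of 29 listed, 26 were tested, 24 were above 0, the median was 0.50 and 2 passed 2-fold. Their summed level was 4375 to 9935 CPM in muscle-rich and 3393 to 5692 CPM in muscle-poor libraries. DES, FLNA and ITGA7 were not analysed here. Synemin (SYNM), an intermediate filament protein, had 321, 545 and 836 CPM as lowest, median and highest in muscle-rich libraries, against 230.2, 316 and 476 CPM in muscle-poor libraries (0.95 ± 0.27). Here again Con replicate 2 was the lowest on its side and LWG replicate 2 the highest on the other.

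PDLIM3, an actinin-binding protein, differed by 0.91 ± 0.30, and SYNPO2, an actin-bundling protein of muscle, by 0.79 ± 0.37. LDB3, a PDZ and LIM protein of muscle attachment sites, stood at 2.74, 6.73 and 16.0 CPM in muscle-rich libraries and at 2.22, 3.14 and 5.34 CPM in muscle-poor libraries (1.38 ± 0.29). Its highest value was that of LWG replicate 4. SGCD, a sarcoglycan, had the largest difference of the list (1.47 ± 0.58) at a level of 1.37 ± 0.71 CPM in muscle-rich and 0.704 ± 0.381 CPM in muscle-poor libraries. The adhesion genes TLN1 (0.11 ± 0.24), ITGA8 (−0.08 ± 0.19) and LPP (−0.24 ± 0.35) differed little between the sides. FLNC, a filamin, was highest of all in a muscle-poor library, LWG replicate 2 with 183 CPM, although its fitted difference was 0.74 ± 0.38.

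Genes of excitation and relaxation were above 0 in 21 of 23 tested (24 listed), with a median of 0.32, and none passed 2-fold. ATP2B4, a calcium pump of the cell membrane, stood at 38.6, 57.0 and 114 CPM in muscle-rich libraries and at 20.0, 38.6 and 47.8 CPM in muscle-poor libraries (0.99 ± 0.36). KCNMB1, the subunit that tunes the large-conductance potassium channel in smooth muscle, differed by 0.68 ± 0.32, and KCNMA1, the pore of that channel, by 0.36 ± 0.21. The muscarinic receptor CHRM2 differed by 0.66 ± 0.30, the tachykinin receptor TACR1 by 0.69 ± 0.41, the oxytocin-family receptor OXTR by 0.93 ± 0.58 and phospholamban (PLN), a brake on calcium reuptake, by 0.65 ± 0.36. CACNA1C, the L-type calcium channel, differed by 0.45 ± 0.26, with 178 CPM in HWG replicate 4 as its highest value. The serotonin receptor HTR4 was below 0 (−0.32 ± 0.15), with 18.3 ± 1.55 CPM in muscle-rich and 22.3 ± 3.39 CPM in muscle-poor libraries.

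Transcription factors that control smooth muscle genes had smaller differences. Of 16 tested regulators (21 listed) 11 were above 0, and the median was 0.21. Myocardin (MYOCD), the coactivator that drives the smooth muscle programme, had 36.1, 56.4 and 100.3 CPM in muscle-rich libraries, against 34.8, 41.4 and 64.6 CPM in muscle-poor libraries (0.43 ± 0.25). LWG replicate 2 held the 64.6 CPM, above 5 of the 6 muscle-rich libraries. SRF, the DNA-binding partner of myocardin, differed by 0.19 ± 0.18. The related coactivators MRTFA (−0.40 ± 0.20) and MRTFB (−0.24 ± 0.20), which respond to the state of actin, were below 0. FOXF1, a factor of gut mesenchyme, differed by 0.37 ± 0.30 and TCF21, a factor of mesenchymal precursors, by 0.48 ± 0.30, and HWG replicates 1 and 4 were the highest libraries in both. In TBX3, a T-box factor, the difference was −0.35 ± 0.23.

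Cells that live within the muscle coat had smaller median differences than the contractile list, and those of KIT, ANO1, ELAVL4, VIP and SOX10 were larger without LWG replicate 4. The 9 genes of the interstitial cells of Cajal had a median of 0.16, with 7 above 0. KIT, the receptor that these cells need, stood at 26.0, 38.6 and 51.1 CPM in muscle-rich libraries and at 26.2, 29.7 and 41.5 CPM in muscle-poor libraries (0.16 ± 0.18). The lowest KIT value of all was that of LWG replicate 4. ANO1, their chloride channel, differed by 0.21 ± 0.36 and was highest in a muscle-poor library (27.0 CPM in LWG replicate 2). Without LWG replicate 4 the difference was 0.36 for KIT and 0.54 for ANO1.

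Of the enteric neuron genes, 19 of 23 were tested, 12 were above 0 and the median was 0.24. ELAVL4, an RNA-binding protein of neurons, had 6.19, 12.1 and 15.4 CPM in muscle-rich libraries, against 5.20, 7.74 and 12.6 CPM in muscle-poor libraries (0.31 ± 0.32). VIP, a relaxing transmitter, differed by 0.50 ± 0.22. Without LWG replicate 4, ELAVL4 differed by 0.64 and VIP by 0.80. NOS1, which makes nitric oxide as a transmitter, was at or near 0 throughout, between 0.00 and 2.31 CPM over the 12 libraries, and its difference (−0.88 ± 0.93, and −0.04 without LWG replicate 4) was smaller than its error. Of the glial genes 8 of 11 were tested, 5 were above 0 and the median was 0.12. SOX10, a glial transcription factor, was the highest of them (1.02 ± 0.54), and its 10.4 CPM in HWG replicate 4 and 6.75 CPM in HWG replicate 1 were over all muscle-poor libraries. Without LWG replicate 4 its difference was 1.47.

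Fibroblast and matrix genes made up the other large stromal list. Of 37 listed, 36 were tested and 34 were above 0, but the median was 0.30 (1.24-fold) and 1 passed 2-fold. This 1 was TWIST1, a mesenchymal factor with 0.343 ± 0.245 CPM in muscle-rich and 0.0836 ± 0.0930 CPM in muscle-poor libraries, a level too low to carry a fold. Summed, the list stood at 4851 to 11133 CPM in muscle-rich and 4165 to 7409.7 CPM in muscle-poor libraries. The median difference of the contractile list exceeded that of the fibroblast list by 0.54, and over 24 alternative settings this gap lay between 0.34 and 0.71. Without LWG replicate 4 the contractile median was 1.11 and the fibroblast median 0.53. Without HWG replicate 3, the only muscle-poor HWG library, they fell to 0.51 and 0.16, and the gap to 0.35. The gap is a description, since the ranking gene is itself of the first list.

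COL1A2, a chain of type I collagen, had 397, 549 and 891 CPM in muscle-rich libraries, against 263, 331 and 627 CPM in muscle-poor libraries (0.47 ± 0.27). Con replicate 1, a muscle-poor library, held the 627 CPM, above 4 of the muscle-rich libraries, and its lowest muscle-rich level that of LWG replicate 4. COL1A1, the other chain of that collagen, differed by 0.61 ± 0.29, COL3A1, of type III collagen, by 0.36 ± 0.21 and SPARC, a matrix glycoprotein, by 0.67 ± 0.27. Several fibroblast genes showed hardly any difference: matrix Gla protein (MGP) 0.00 ± 0.38, the Wnt-binding protein SFRP2 0.01 ± 0.36 and the protease HTRA1 0.12 ± 0.19. PDGFRA, a growth factor receptor of mesenchyme, had 68.4 ± 25.0 CPM in muscle-rich and 64.2 ± 24.8 CPM in muscle-poor libraries, while its fitted difference, which allows for diet, was −0.31 ± 0.28, so no direction can be given.

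Vessels and basement membrane lay in the same low range. Blood endothelium had a median of 0.14 over 16 genes and lymphatic endothelium 0.07 over 8. PECAM1, an adhesion protein of endothelium, differed by 0.01 ± 0.18, CDH5, its cadherin, by 0.11 ± 0.20 and VWF, its clotting glycoprotein, by −0.35 ± 0.22. Basement membrane genes had a median of 0.16 over 18 genes, from LAMA3, a laminin chain made by epithelium, at −0.58 ± 0.23 to COL15A1 at 0.78 ± 0.33. Pericytes and vessel wall had a median of 0.34 over 9 genes. Within that list CSPG4, a proteoglycan of mural cells, differed by 1.05 ± 0.36, RGS5, a G-protein regulator of pericytes, by 0.38 ± 0.24 and PDGFRB, their growth factor receptor, by −0.05 ± 0.31. Signals of villus and crypt mesenchyme had a median of 0.19 over 18 genes, and their extremes NOG, a BMP inhibitor (1.13 ± 0.63), and NRG1, an epidermal growth factor-like ligand (−0.74 ± 0.46), both stood at a few CPM or less.

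**Figure D2:**
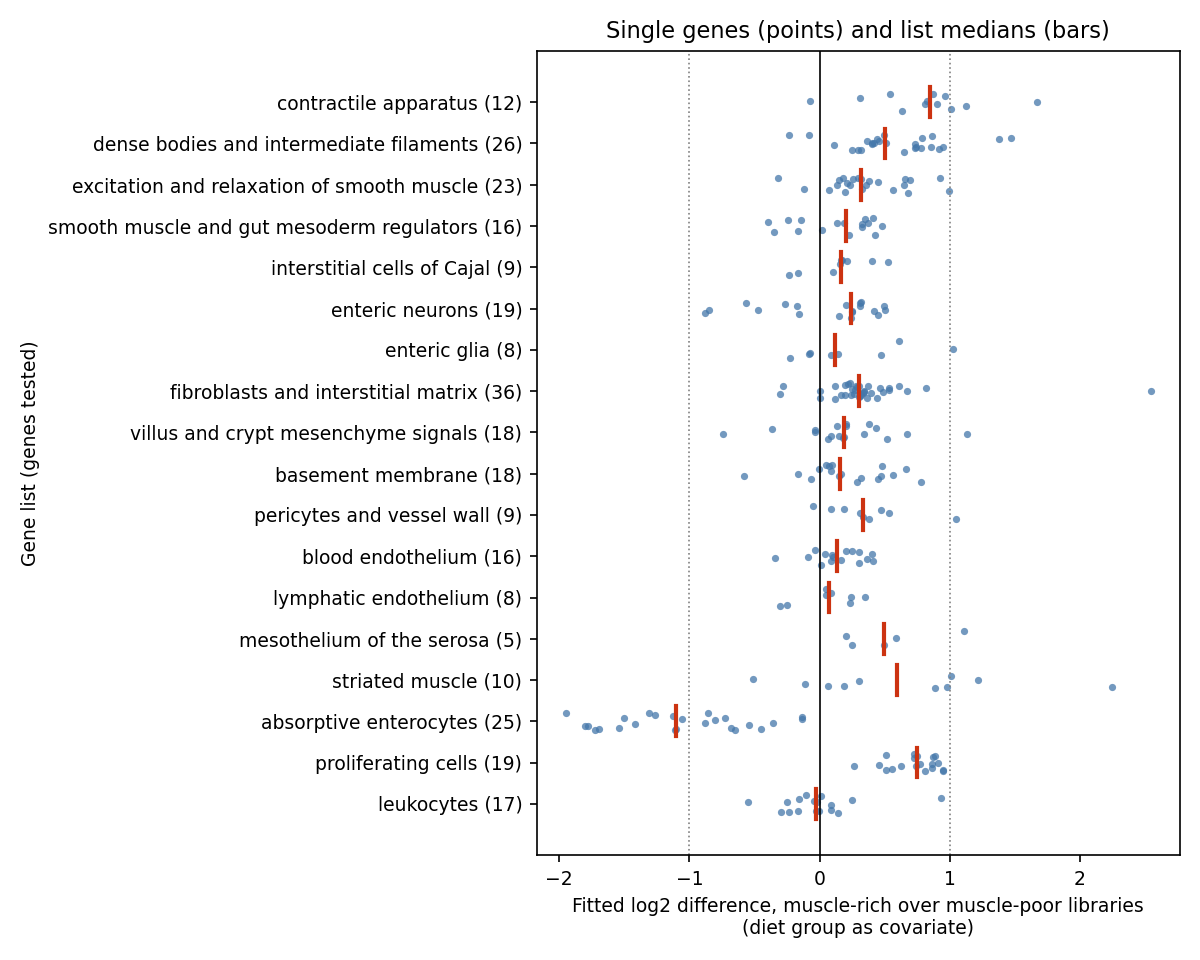
Each point is a gene, placed by its fitted log2 difference of muscle-rich over muscle-poor libraries, each bar is the median of its list, and dotted lines mark 2-fold. The contractile list has a median of 0.85 and the fibroblast list 0.30, enterocyte genes all lie below 0 with a median of −1.10, and proliferation genes all lie above 0 with a median of 0.75.

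In LWG replicate 4, contractile genes stood above and fibroblast genes below their means. The level of a list in a library was taken as the mean over its genes of log2(CPM + 0.5), each less its mean over the 12 libraries. In LWG replicate 4 this was 0.18 for the contractile list, which includes the ranking gene ACTG2, and 0.04 for dense bodies. For excitation and relaxation it was −0.18, and for smooth muscle regulators −0.25. In the same library it was −0.35 for fibroblasts, −0.51 for blood endothelium, −0.51 for the interstitial cells of Cajal, −0.43 for glia and −0.41 for enteric neurons. No gene of the Cajal, glial, neuronal, pericyte or endothelial lists was highest in this library, and it was the lowest library for 4 of the 9 Cajal genes, 6 of the 16 blood endothelial genes and 7 of the 36 fibroblast genes.

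LWG replicate 2, on the muscle-poor side, differed in another way. Its contractile level was −0.12 and its fibroblast level −0.46, while dense bodies (0.14), excitation genes (0.18), enteric neurons (0.26) and glia (0.22) were above their means. Accordingly MYH11 over COL1A2, a ratio of CPM, was highest of all in this library (12.7), against 10.01 in LWG replicate 4 and 9.78 in HWG replicate 2. The lowest such ratio was 3.93 in Con replicate 1, whose fibroblast level was 0.25 beside a contractile level of −0.18. Muscle and matrix thus moved apart in either direction among these geese.

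**Figure D3:**
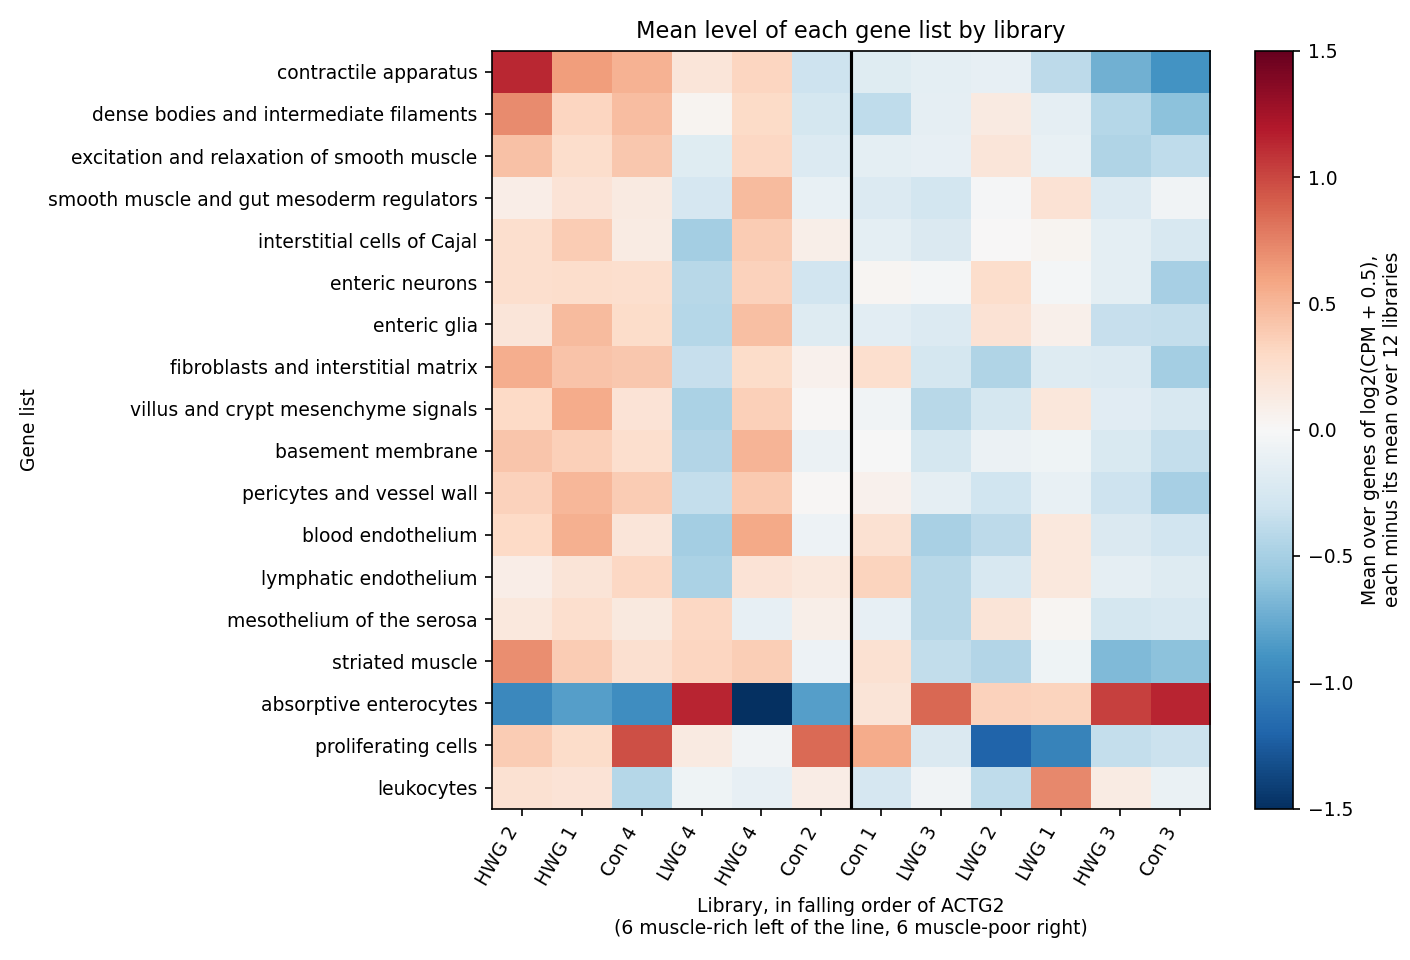
Rows are the 18 gene lists and columns the 12 libraries in falling order of ACTG2. Colour is the mean over a list's genes of log2(CPM + 0.5), each less its mean over the 12 libraries. LWG replicate 4 is above the mean in contractile genes (0.18), which include the ranking gene ACTG2, and in enterocyte genes (1.14). It is below the mean in excitation genes (−0.18) and in fibroblast genes (−0.35), and HWG replicate 4 has the lowest enterocyte level (−1.49).

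The same comparison was made inside each diet, between the goose with the highest ACTG2 and the goose with the lowest: Con replicate 4 with Con replicate 3, LWG replicate 4 with LWG replicate 1, and HWG replicate 2 with HWG replicate 3. Of all genes, 14.3% were higher in all 3 pairs and 13.6% lower in all 3. In the contractile list 10 of 12 genes were higher in all 3 pairs, and in dense bodies 20 of 26. Excitation and relaxation had 7 of 23 such genes, smooth muscle regulators 1 of 16, fibroblasts 11 of 36 and Cajal cells 1 of 9. None of the 16 blood endothelial, 8 lymphatic or 19 neuronal genes was higher in all 3. ACTG2 itself fixed the order of the pairs, so its own list is described and not supported by these counts.

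The LWG pair departed from the others. The median log2 ratio of the contractile list was 1.43 in the Con pair, 0.52 in the LWG pair and 2.20 in the HWG pair. In the same order, that of dense bodies was 1.16, 0.20 and 1.16. That of excitation and relaxation was 0.75, −0.13 and 0.67, and that of smooth muscle regulators 0.38, −0.44 and 0.40. That of the fibroblast list was 1.03 in the Con pair, −0.22 in the LWG pair and 0.74 in the HWG pair, and that of blood endothelium 0.47, −0.71 and 0.62 in the same order of diets. Enteric neurons had medians of 1.07, −0.24 and 0.55 and glia of 0.88, −0.96 and 0.47 in the Con, LWG and HWG pairs. With 1 goose on each side of a pair, these ratios have no replicate check.

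Striated muscle genes were followed because a sample may carry other muscle. Of the defining genes CKM and MYH7 were not analysed here. The 10 tested genes summed to 50.3 to 189 CPM in muscle-rich and to 28.4 to 69.3 CPM in muscle-poor libraries, with 8 above 0 and a median of 0.60. ACTA1, the alpha-actin of skeletal muscle, had 20.9, 38.5 and 96.1 CPM in muscle-rich libraries, against 8.33, 17.1 and 25.3 CPM in muscle-poor libraries (1.22 ± 0.42). TNNT2, a troponin of the heart, had 1.19, 3.37 and 6.87 CPM in muscle-rich libraries and 0.00, 1.24 and 1.76 CPM in muscle-poor libraries (2.25 ± 0.87). ACTC1, another actin in the sum, averaged 23.1 ± 24.0 CPM in muscle-rich and 6.15 ± 5.91 CPM in muscle-poor libraries (SD, n = 6 each). Its difference was 0.98 ± 1.02. The 2 genes of the list below 0 reached −0.51. Whether the ACTA1 and ACTC1 counts are their own or those of ACTG2 was not tested. Mesothelium of the serosa, the outer cover of the muscle, was barely measured: 5 genes summed to 6.06 to 8.99 CPM in muscle-rich and to 3.96 to 7.78 CPM in muscle-poor libraries, and MSLN and CALB2 were listed at 0 in some libraries of both sides.

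Genes of absorptive enterocytes ran opposite to the muscle in most libraries. All 25 tested enterocyte genes (30 listed) were below 0, with a median of −1.10, and 14 were lower past 2-fold. APOB, which carries absorbed fat out of the cell, had 129, 222 and 2593 CPM in muscle-rich libraries, against 769.7, 1633 and 3548 CPM in muscle-poor libraries (−1.95 ± 0.65). MEP1A, a brush border protease, had 374, 646 and 2606 CPM in muscle-rich libraries, against 1198, 3116 and 5565 CPM in muscle-poor libraries (−1.80 ± 0.45). In both genes 5 of the 6 muscle-rich libraries lay below every muscle-poor library, and the exception was LWG replicate 4. Without it the differences were −3.15 for APOB and −2.55 for MEP1A, and these rest on the Con and HWG libraries alone. The glucose transporter SLC2A2 differed by −1.73 ± 0.72 and VIL1, a microvillus protein, by −0.86 ± 0.30, while the epithelial cadherin CDH1 (−0.13 ± 0.19) and the intestinal factor CDX1 (−0.14 ± 0.20) differed little. Summed, enterocyte genes stood at 6675 to 37762 CPM in muscle-rich and 17771 to 37127 CPM in muscle-poor libraries.

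Enterocyte genes also vary with the place along the gut. In mouse GATA4 is a factor of the upper small intestine and is absent lower down, while HOXA10 belongs to hind parts of the body. Both were picked after their values had been seen. GATA4 stood between 27.5 and 43.6 CPM in HWG replicates 1 and 2 and LWG replicate 4 and at 0.0655 to 2.66 CPM in the other muscle-rich libraries. In muscle-poor libraries it stood between 49.8 and 86.6 CPM in Con replicates 1 and 3, LWG replicate 3 and HWG replicate 3, and at 0.00 and 0.437 CPM in LWG replicates 2 and 1. HOXA10 was the reverse, at 10.01 to 35.6 CPM in Con replicates 2 and 4 and HWG replicate 4 of the muscle-rich side, at 5.75 and 30.8 CPM in LWG replicates 1 and 2 of the muscle-poor side, and at no more than 0.173 CPM in the remaining 7 libraries. Libraries of both kinds stood on both sides, and the part of this pattern in the differences between the sides was not tested.

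**Figure D4:**
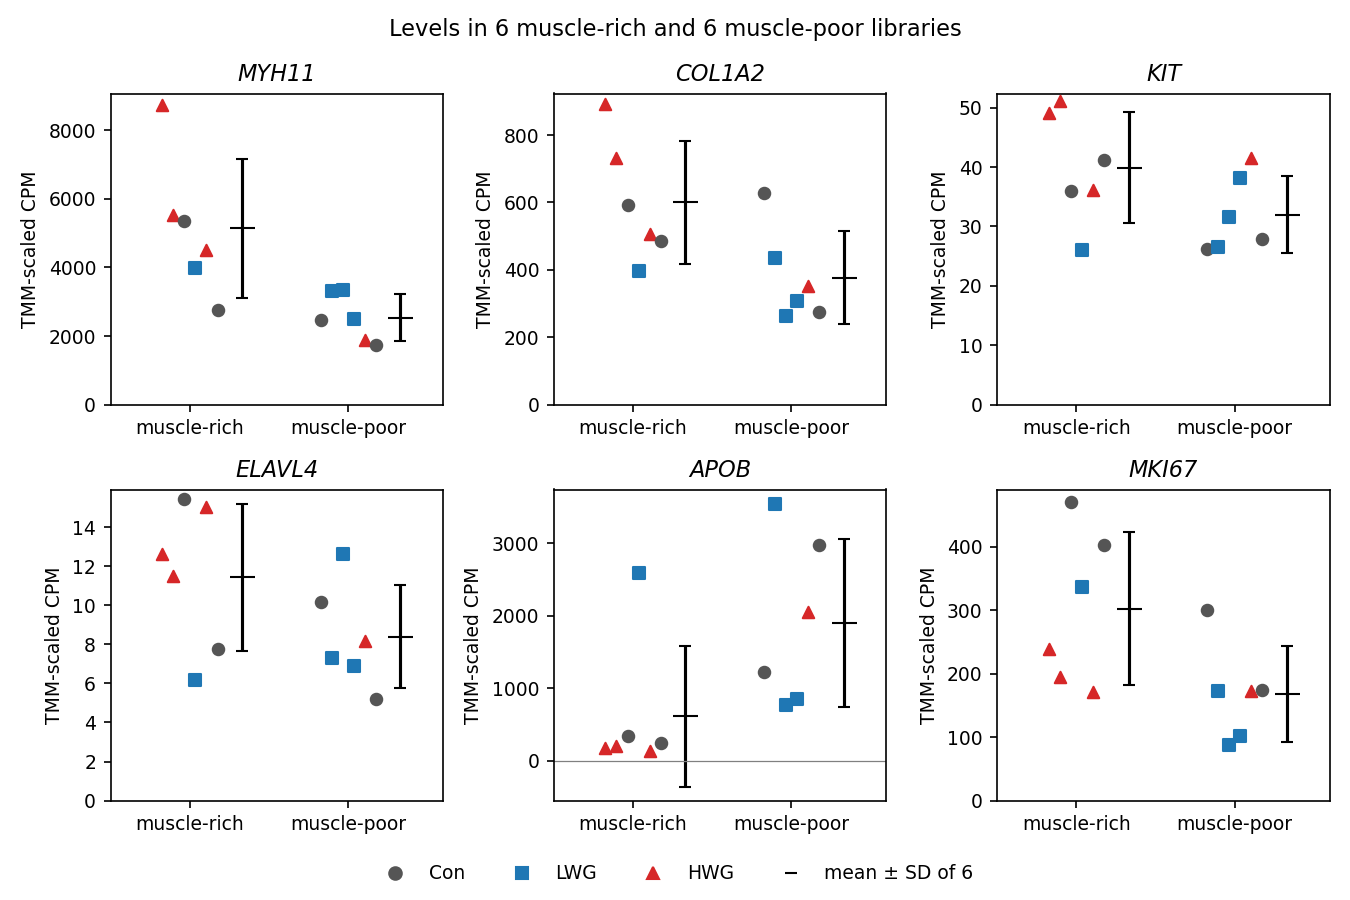
TMM-scaled CPM of 6 genes in muscle-rich (left) and muscle-poor (right) libraries, with symbols by diet group and the mean ± SD of 6 libraries beside them. MYH11 averages 5134 and 2536 CPM, COL1A2 601 and 377 CPM and KIT 39.9 and 32.0 CPM on the muscle-rich and muscle-poor sides, and 1 muscle-rich library, LWG replicate 4, has 2593 CPM of APOB.

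Genes of proliferating cells stood higher on the muscle-rich side, as ranked by ACTG2. All 19 tested (20 listed) were above 0, the median was 0.75, and none passed 2-fold. In 17 of the 19 the goose with the highest ACTG2 was above the goose with the lowest in each of the 3 diets. MKI67, a marker of dividing cells, had 172, 288 and 471 CPM in muscle-rich libraries, against 87.1, 173 and 300.5 CPM in muscle-poor libraries (0.86 ± 0.24). The order of libraries was not that of the muscle genes, since Con replicate 4 was highest in 14 of the 19 genes and LWG replicate 2 lowest in 15. Leukocyte genes had a median of −0.02 over 17 genes, and CD3E, of the T cell receptor complex, differed by −0.005 ± 0.22.

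Next, genes without overlap were taken (0.377% of all genes were higher in this way). The 10 with the largest differences were named, among those with a mean of at least 5 CPM and a symbol other than a LOC number. DUOX2, an oxidase of epithelium that makes hydrogen peroxide, had 9.11, 12.9 and 15.2 CPM in muscle-rich libraries, against 3.61, 5.47 and 8.73 CPM in muscle-poor libraries (1.20 ± 0.25). CCKAR, a receptor for cholecystokinin, had 11.5, 17.1 and 34.4 CPM in muscle-rich libraries, against 4.14, 9.30 and 11.5 CPM in muscle-poor libraries (1.16 ± 0.36). PPP1R3C, a glycogen-targeting subunit of a phosphatase, differed by 1.08 ± 0.29, the bradykinin receptor BDKRB1 by 0.89 ± 0.32 and the collagen hydroxylase P3H2 by 0.84 ± 0.24. The other 5 were PRC1, CLSPN, NDC80, PASK and KNL1, of which PRC1, NDC80 and KNL1 act in mitosis and CLSPN in DNA replication.

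On the lower side (0.215% of all genes) the largest differences, under the same limits on level and symbol, were those of SLC26A6, ANOS1 and SCT. SLC26A6, an anion exchanger of the brush border, had 3.86, 18.3 and 26.9 CPM in muscle-rich libraries, against 31.2, 67.7 and 122 CPM in muscle-poor libraries (−2.06 ± 0.42). ANOS1, an extracellular matrix protein, had 7.16, 11.5 and 13.5 CPM in muscle-rich libraries, against 23.3, 38.0 and 93.0 CPM in muscle-poor libraries (−1.99 ± 0.28). SCT, the hormone secretin of endocrine cells, had 7.01, 16.6 and 32.1 CPM in muscle-rich libraries, against 34.1, 56.6 and 92.6 CPM in muscle-poor libraries (−1.73 ± 0.43). NUDT13, ALPK1, MIGA1, WWC2, NAPB, YES1 and NAV2 followed, from −0.80 ± 0.19 to −0.56 ± 0.14.

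The diets come from the labels, so their contrasts can be tested. ACTG2 stood at 2537 ± 1514 CPM in Con, 2640 ± 1980 CPM in LWG and 5295 ± 4432 CPM in HWG libraries (SD, n = 4 each). The exact permutation test of log2 CPM, over 5775 ways to form 3 groups of 4, gave p = 0.566. The groups overlapped widely, since both the highest library (HWG replicate 2) and the second lowest (HWG replicate 3, 1059 CPM) were HWG.

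Each wheat germ group was then compared with Con in edgeR (quasi-likelihood F-test), with the side of the split as a covariate. No gene passed an adjusted p of 0.05 (Benjamini-Hochberg) for LWG (0.00%) or for HWG (0.00%), and DESeq2 with the same design called 38 genes for LWG and 4 for HWG. At an unadjusted p under 0.05, 2.73% of the genes were higher and 3.12% lower in LWG, and 1.42% were higher and 2.32% lower in HWG. None of the 12 contractile genes reached this in either direction in either diet. The side was cut from ACTG2, 1 of these 12, so the covariate can take up a diet difference in this list. The contractile median in HWG was 0.39 with the covariate and 0.69 without it. MYH11 had 3277 ± 608 CPM in LWG libraries, against 3076 ± 1571 CPM in Con libraries (SD, n = 4 each), a log2 fold change of 0.43 ± 0.34 (edgeR, adjusted p = 0.93). It had 5152 ± 2828 CPM in HWG libraries (0.44 ± 0.34 against Con, adjusted p = 0.99). Without the covariate, TPM2, MYL9 and SMTN had unadjusted p-values of 0.032, 0.040 and 0.042 for HWG (adjusted p = 0.94 by edgeR).

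With the covariate, 8 of 36 fibroblast genes were lower and 1 higher in LWG at an unadjusted p under 0.05, and their median was −0.29. Without it 10 were lower and 1 higher, with a median of −0.39. The contractile median in LWG was 0.31 with the covariate and 0.06 without it, and the difference between the lists was not tested. CPED1, a cadherin-like protein with an esterase domain, had 27.0 ± 3.06 CPM in LWG libraries and 81.2 ± 30.01 CPM in Con libraries (SD, n = 4 each), and its log2 fold change was −1.45 ± 0.25 (edgeR, adjusted p = 0.41). HTRA1 had 96.3 ± 17.5 CPM in LWG libraries and 212 ± 36.3 CPM in Con libraries (−1.11 ± 0.21, adjusted p = 0.41), and THBS1, a matrix glycoprotein, 273 ± 45.2 CPM in LWG and 506 ± 82.0 CPM in Con libraries (−0.84 ± 0.19, adjusted p = 0.50). DESeq2, with the same covariate, called these 3 lower in LWG and no contractile gene in either direction. The published paper on these geese lists the same 3 as up-regulated in LWG, the opposite direction, and the cause was not tested. In HWG the fibroblast median was 0.17, with 1 gene lower at an unadjusted p under 0.05.

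Of the other lists, dense bodies had 4 genes higher in LWG at an unadjusted p under 0.05, led by FLNC (1.42 ± 0.44, adjusted p = 0.72 by edgeR) and LDB3 (1.08 ± 0.34, adjusted p = 0.74). FLNC stood at 109 ± 49.1 CPM in LWG libraries, against 52.5 ± 38.5 CPM in Con libraries (SD, n = 4 each). Without the covariate 1 dense body gene was higher in LWG at this p, and the median of the list was 0.05 in place of 0.24. Blood endothelium had 4 of 16 genes lower in LWG and the interstitial cells of Cajal none of 9. Proliferation genes had the highest share of the 18 lists, with 16 of 19 lower in LWG and 12 of 19 lower in HWG at an unadjusted p under 0.05. CENPF, a kinetochore protein, had 24.4 ± 7.27 CPM in LWG libraries, against 72.2 ± 19.1 CPM in Con libraries (−1.45 ± 0.26, edgeR, adjusted p = 0.41). DESeq2 called CENPF, KIF2C, CENPE and BUB1B of this list lower in LWG, all of them genes of chromosome segregation, and MMRN1 of the lymphatic list. The published paper lists CENPF and MMRN1 as up-regulated in LWG, although its discussion gives MMRN1 as down-regulated. Without the covariate, 16 of 19 were lower in LWG and 3 in HWG.

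**Figure D5:**
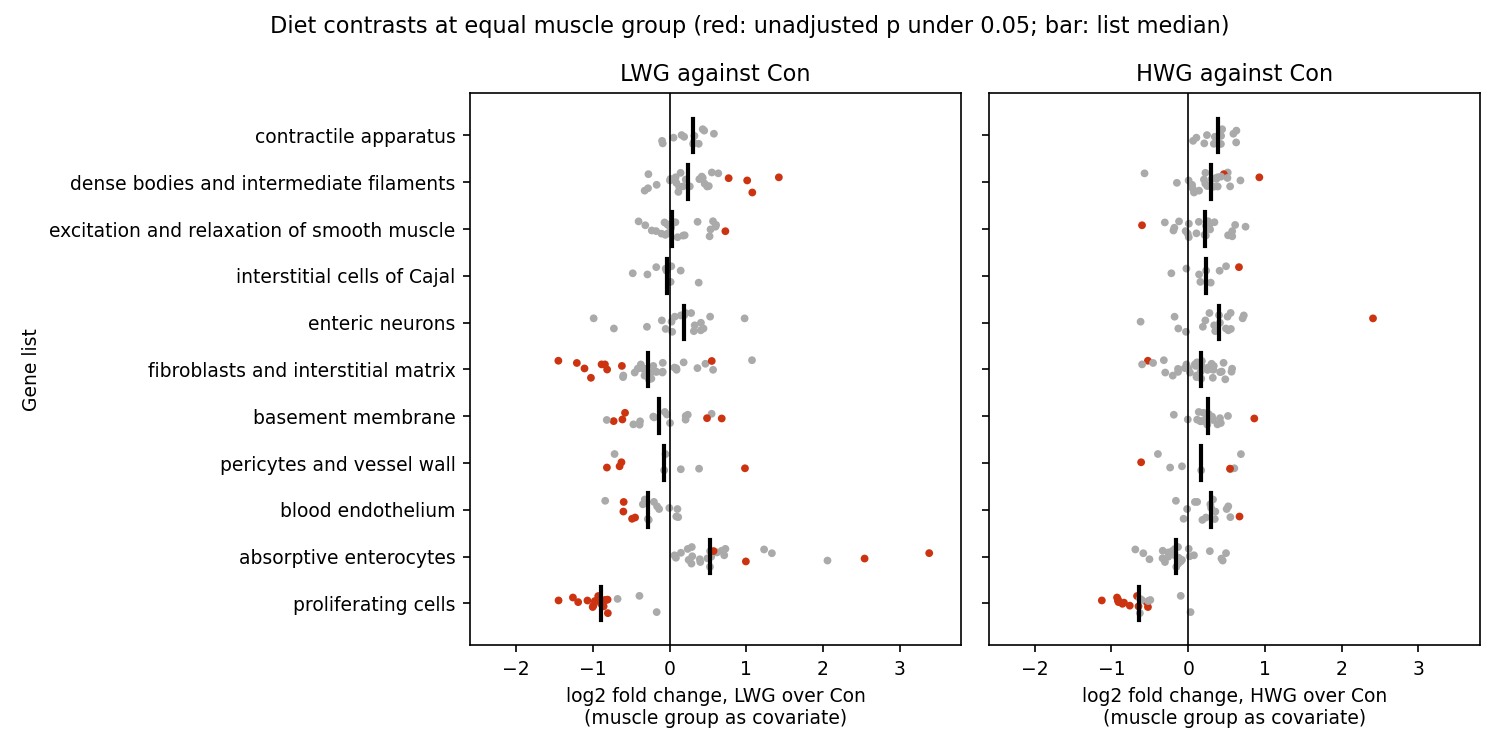
Points are genes of 11 lists, placed by their log2 fold change of LWG (left panel) or HWG (right panel) over Con with the side of the split as a covariate, red where the unadjusted p is under 0.05, and bars are list medians. No contractile gene is red in either panel, and no gene passes an adjusted p of 0.05 by edgeR. The side was cut from ACTG2, a contractile gene, so it can take up a diet difference in that list.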

How the data were processed

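RNA from jejunal tissue of 12 geese was selected for poly(A), made into stranded libraries and sequenced in pairs of reads. Per the labels, fastp, HISAT2, StringTie and edgeR were used by the authors, and their versions are not given in the sources used here. For each goose the authors deposited whole-number counts and FPKM values for 18007 genes. Gene numbers of 15158 genes were matched to a RefSeq table of the Taihu goose assembly, which served for names only (1325 genes renamed), and 5526 genes have a LOC number only.

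The filter filterByExpr of edgeR 4.0.16 (R 4.3.3) kept 14863 genes. Their counts were scaled by TMM, and diet group and side of the ACTG2 ranking entered 1 quasi-likelihood fit. The sides were chosen by a measured value, so only fitted differences and standard errors of that contrast are used. Each standard error was the absolute log2 difference divided by the square root of its F statistic. It draws on a dispersion shared between genes and allows for diet, so it is not a plain error of group means. Diet contrasts were tested in the same fit, with Benjamini-Hochberg adjustment over all genes. The common biological coefficient of variation was 0.372. DESeq2 1.42.0 and limma 3.58.1 (on log2(FPKM + 0.1) and log2(FPKM + 1), mean FPKM of at least 0.5) were alternatives. Summaries used pandas 2.3.3, numpy 2.4.6 and scipy 1.17.1 in Python 3.11.15, plots used matplotlib 3.10.9, and the fit was tested on simulated data. All 66 pairs of libraries differed (smallest chi-square per degree of freedom 87.2), and the libraries came from separate geese.

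The ranking gene, the 18 gene lists and the comparisons were chosen with earlier results of these data known. Named genes were ACTG2, all measured contractile genes, up to 4 genes at either end of each other list with its first 3 members, up to 4 members with the smallest p in a diet contrast, and the 10 genes of at least 5 CPM with the largest difference without overlap in each direction.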

Additional observations from a re-analysis of the deposited data

Results flagged for a closer look

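PPP1R12B, a targeting subunit of myosin phosphatase, had 8.35 CPM in Con replicate 1, the lowest of the 6 muscle-poor libraries and far from the next at 13.2 CPM (gap over range 0.715). It was the only such value among 60 groups of 6 libraries examined, and chance alone sets apart about 1 in 20 groups.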

How the results depend on the processing

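The counts of genes between the sides moved with the libraries used. Leaving out each library in turn gave 66 to 311 genes higher and 33 to 570 lower without overlap, 421 to 945 higher and 499 to 859 lower past 2-fold, a contractile median of 0.51 to 1.11 and a fibroblast median of 0.16 to 0.53. It gave 0 to 1 genes called for LWG, 0 to 0 for HWG, and p = 0.207 to 0.926 in the exact permutation test of ACTG2 over diets. The upper ends of the counts came without LWG replicate 4 (311, 570, 945 and 859). The lower ends of both medians came without HWG replicate 3 (0.51 and 0.16). Without Con replicate 1 the counts were 243 and 190 without overlap, with 604 higher past 2-fold. Genes without overlap also moved by over 1.5 times to 88 to 103 higher without Con replicate 2, HWG replicate 4 or LWG replicate 1, 2 or 3, and to 54 to 65 lower without Con replicate 4, HWG replicate 4 or LWG replicate 1 or 3. Contractile genes without overlap numbered 0 as reported and 6 without Con replicate 2. With Con replicates 1 and 2 both left out (chosen after seeing the data), they numbered 7, and 299 genes were higher and 222 lower without overlap, with 740 higher and 737 lower past 2-fold. With these 2 libraries on exchanged sides (also chosen after seeing the data) 3 contractile genes did not overlap. The 4 highest against the 4 lowest libraries gave 765 higher and 613 lower without overlap and 753 and 723 past 2-fold. Ranking by MYH11, or by the contractile genes other than ACTG2 (chosen after seeing the data), gave 9 lower genes without overlap. Limma gave 20 lower without overlap with either pseudocount, with 165 and 196 past 2-fold at a pseudocount of 0.1 and 58 and 123 at 1. Genes past 2-fold were 1493 and 1461 without a filter, 234 and 287 with ACTG2 as a continuous covariate, and 239 higher when ranked within each diet. The replicate block gave 815 and 1033 past 2-fold. Same-numbered libraries deviated together in 6 of 12 pairs (correlation over 0.1, range −0.40 to 0.53), and 2 libraries correlated best with their own number. The labels do not say whether the numbers pair the geese, and these correlations are too mixed to decide it. DESeq2 called 38 genes for LWG (20 higher and 18 lower) and 4 for HWG (0 higher and 4 lower). The direction turned for FABP1 without the diet covariate (0.15) and without HWG replicate 3 (0.27, in a range from −3.31), and for NOG when Con replicates 1 and 2 changed sides (−0.033). The cause was not tested for any of these. Of 5925 values of 221 named genes under these settings, 5699 moved by less than the spread between libraries, 223 moved further and 3 turned. The 3 do not cover every change of sign. Without LWG replicate 4, LPP (0.03), ITGA8 (0.12), PDGFRB (0.31) and PPP1R12B (0.05) were above 0, and with all 12 libraries they were below 0. These changes were within the spread and are counted among the 5699. Counts of overlap have no value of their own without the diet covariate, with the replicate block or with a continuous covariate, and the ranking by DES was not run. The libraries' number limits the precision of every difference, and the read pairs behind a count are not known.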
